A study of Mus musculus with 14 samples.

Results

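The sites described here are 1603 genomic regions in a mouse pro-B cell line where an antibody against the transcription factor EBF1 gave a ChIP-seq peak with a truncated form of the protein, called dC, and none with the wild-type (wt) form. Each region also carried a peak of Brg1 in the line with wt EBF1 and in the line with EBF1 dC. The regions were chosen by these measured calls: a peak of the EBF1 dC list on chromosomes 1 to 19, X or Y that shared no base with an EBF1 wt peak and at least 1 bp with a Brg1 peak of each line. They make up 14.4% of the 11147 peaks of the EBF1 dC list and 24.8% of the 6454 called with dC alone. The number depends on the peak threshold and the overlap rule. With summits within 200 bp in place of every overlap, it was 924, and some of these may share bases with an EBF1 wt peak. It was 709 with the dC list held to the length of the wt list, and 74 with every list held to a −log10 q of at least 20. The working name for such regions is open sites, which the lists do not measure. They record a Brg1 peak, not accessibility, so the regions are called dC-only sites with Brg1 here.

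The question of the study, by its title, was whether the C-terminal domain of EBF1 enhances the recruitment of Brg1. Its 14 mouse samples (C57BL/6) comprised 9 ChIP-seq libraries and 5 inputs, with 1 library per group. For the A-MuLV lines, pro-B cells from EBF1 fl/fl fetal liver were transformed with Abelson murine leukaemia virus and carried a pMys retroviral vector with EBF1 wt or EBF1 dC, and EBF1 and Brg1 were profiled in each. All 5 fetal liver libraries profiled Brg1 in EBF1-/- c-kit+ progenitors from embryos of day 16 to 18. Those cells were transduced with a pMys vector that was empty or carried wt EBF1, EBF1 dC, EBF1 dPLD (named d480-520 in the construct label) or EBF1 F-GATA3, which the labels do not describe further, and were kept for 14 to 20 days on OP9 stromal cells. The labels give the wt and F-GATA3 cultures as pro-B, the dC and dPLD cultures as partly blocked before that stage, and the empty-vector culture as blocked before it. Vector, stage and library therefore cannot be told apart in the fetal liver series, and neither can fewer cells with Brg1 at a site and less Brg1 per cell. The labels do not say how many animals or clones stand behind a library.

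EBF1 is a DNA-binding protein of early B-lineage cells that recognises a short inverted repeat and is required for B-cell specification. Brg1, the product of Smarca4, is the motor subunit of BAF and PBAF complexes, which move nucleosomes and are found at promoters and enhancers of many cell types. EBF1 can bind closed chromatin in progenitors, and its C-terminal part has been linked to the opening of such sites.

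The promoter windows below show what the DNA under such a site looks like. A window spans 250 bases before to 50 after a RefSeq transcription start (GRCm38.p6, written 5′ to 3′ on the strand of the gene), and 301 of the sites had their EBF1 dC summit in one. The inverted repeat was searched as the 8 letters CCCNNGGG and as a 10-letter form in which a T precedes and an A follows these, so every match to the longer form contains the shorter. Both read the same on either strand. The 6 windows shown are the pair with the highest EBF1 dC fold enrichment among windows with the 10-letter form, among those with the 8-letter form alone, and among those with neither. Capitals mark every match to the 8-letter form. Gimap6 (an immune-associated GTPase) and Trmt11 (a tRNA methyltransferase subunit) have the 10-letter form, Nfkb2 (an NF-kappaB subunit) and Rassf5 (a Ras-binding adaptor) the 8-letter form alone, and Ak6 (a nuclear adenylate kinase) and Tmpo (a nuclear lamina protein) neither.
Gimap6: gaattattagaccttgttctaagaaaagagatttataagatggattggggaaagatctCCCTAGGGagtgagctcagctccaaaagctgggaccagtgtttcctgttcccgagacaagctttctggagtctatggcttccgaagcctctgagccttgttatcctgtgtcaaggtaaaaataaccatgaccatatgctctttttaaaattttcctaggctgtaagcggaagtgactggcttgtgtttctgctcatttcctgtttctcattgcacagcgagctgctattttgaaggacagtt
Trmt11: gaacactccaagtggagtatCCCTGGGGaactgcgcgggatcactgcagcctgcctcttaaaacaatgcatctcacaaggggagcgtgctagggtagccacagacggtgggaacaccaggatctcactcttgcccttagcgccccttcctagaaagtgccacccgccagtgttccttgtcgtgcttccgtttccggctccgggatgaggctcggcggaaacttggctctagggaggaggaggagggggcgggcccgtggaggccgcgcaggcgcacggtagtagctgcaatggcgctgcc
Nfkb2: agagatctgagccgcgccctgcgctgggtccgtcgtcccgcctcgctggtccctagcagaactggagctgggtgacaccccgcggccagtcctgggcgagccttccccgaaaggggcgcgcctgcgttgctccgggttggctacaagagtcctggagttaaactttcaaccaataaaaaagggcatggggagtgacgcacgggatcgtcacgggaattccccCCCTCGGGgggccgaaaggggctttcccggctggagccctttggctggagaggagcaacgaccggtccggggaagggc
Rassf5: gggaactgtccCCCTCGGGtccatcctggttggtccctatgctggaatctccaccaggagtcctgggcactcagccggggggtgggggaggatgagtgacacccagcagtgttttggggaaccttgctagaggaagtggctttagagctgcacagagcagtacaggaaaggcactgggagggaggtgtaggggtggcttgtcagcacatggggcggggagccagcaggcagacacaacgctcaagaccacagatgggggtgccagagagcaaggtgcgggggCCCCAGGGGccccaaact
Ak6: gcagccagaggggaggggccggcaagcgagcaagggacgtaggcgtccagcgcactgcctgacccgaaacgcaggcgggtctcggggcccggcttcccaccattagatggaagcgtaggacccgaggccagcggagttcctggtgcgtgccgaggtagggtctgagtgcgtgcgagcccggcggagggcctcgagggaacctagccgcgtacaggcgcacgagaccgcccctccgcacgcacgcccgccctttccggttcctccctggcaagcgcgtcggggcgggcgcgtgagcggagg
Tmpo: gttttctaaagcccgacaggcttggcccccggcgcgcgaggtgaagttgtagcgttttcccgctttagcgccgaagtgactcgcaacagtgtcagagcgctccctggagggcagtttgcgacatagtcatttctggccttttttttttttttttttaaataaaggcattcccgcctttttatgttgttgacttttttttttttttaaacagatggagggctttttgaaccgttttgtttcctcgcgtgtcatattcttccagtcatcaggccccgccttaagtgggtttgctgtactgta

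These windows lie at chr6:48708195-48708494 on the minus strand (Gimap6), chr10:30600651-30600950 on the minus strand (Trmt11), chr19:46304487-46304786 on the plus strand (Nfkb2), chr1:131200136-131200435 on the minus strand (Rassf5), chr13:100651093-100651392 on the plus strand (Ak6) and chr10:91170501-91170800 on the minus strand (Tmpo). Counted from the first base shown, the EBF1 dC summit was at position 79 in Gimap6, whose match starts at position 59, and at position 217 in Nfkb2, whose match starts at position 223. In Trmt11 the summit was at position 89 and the match starts at position 21. The EBF1 dC fold enrichment, the authors' ratio of ChIP signal to local background at the summit, was 20.3 at Gimap6, 10.1 at Trmt11, 18.6 at Nfkb2, 17.7 at Rassf5, 16.2 at Ak6 and 15.9 at Tmpo. Windows without an exact match to either form were thus present among the strongest promoter sites. Inexact matches were not searched, so these windows are not shown to lack the repeat. At 5 of the 6, all but Trmt11, Brg1 was called in all 5 fetal liver libraries. The same held for 47.8% of all the sites and for 313 of the 523 that overlap a promoter window. The Trmt11 site was called with wt (fold 5.54) and dC (5.53) and with no other vector.

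Few of these promoters held the long form of the EBF1 repeat. It was found in 6 of the 301 windows, or 1.99% (exact Clopper-Pearson 95% interval 0.73 to 4.29), beside 0.905% of all 32817 distinct promoter windows. These 6 were the promoters of Gimap6, Trmt11, Nxpe3, Foxj2, Tedc2 and Chaf1a. Among sites of both EBF1 forms with Brg1 in both lines, 46 of 256 windows held it (18.0%, 13.5 to 23.2), and among dC-only sites with no Brg1 peak in either line, 23 of 46 (50.0%, 34.9 to 65.1). The latter 2 intervals do not overlap that of the dC-only sites with Brg1. Among dC-only sites with Brg1 in the dC line alone, 3 of 32 windows held it (9.38%, 1.98 to 25.0), an interval that does overlap. They cover counting error only and treat windows as independent, here and in all shares below.

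The 8-letter form was more common, in 136 of the 301 windows (45.2%, 39.5 to 51.0), against 13.7% of all windows. At sites of both forms it was in 156 of 256 (60.9%, 54.7 to 67.0), and at dC-only sites with Brg1 in the dC line alone in 11 of 32 (34.4%, 18.6 to 53.2). Base composition also differed between the sets: the median GC content was 65.3% at the dC-only sites with Brg1, 63.0% at sites of both forms and 52.7% over all windows, and the median CpG ratio (observed over expected from the C and G content) was 0.84, 0.77 and 0.38. Within windows of 60 to 70% GC, the 8-letter form was in 44.0% of 134 windows of dC-only sites with Brg1, in 63.6% of 118 windows of sites of both forms and in 21.5% of all 6532 windows of that range, and the 10-letter form in 1.49%, 15.3% and 1.21%. The order of the 3 sets is the same in this GC range for both forms. For the 10-letter form, however, the 1.49% is 2 windows, and its interval (0.18 to 5.29) includes the 1.21% of all windows. Where a window held the 8-letter form, the nearest match lay a median of 33 bp from the EBF1 dC summit at the dC-only sites with Brg1 and 13 bp at sites of both forms, and within 50 bp in 62.5% and 86.5% of windows. A match is a description of the letters and not a measured binding site. A motif for ETS factors, CCGGAAG, was searched on both strands after the first results had been seen. It does not overlap the letters of the repeat, and it was in 26.2% of the 301 windows (21.4 to 31.6), 20.7% of those of both forms (15.9 to 26.2) and 8.86% of all windows, or in 29.9%, 22.9% and 18.5% within 60 to 70% GC. The intervals of the first 2 sets overlap.

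Promoters were frequent among the sites. Of 1563 sites on the chromosomes with promoter windows (all but chromosome 18), 523 overlapped a window (33.5%, 31.1 to 35.9), beside 12.0% of all EBF1 dC peaks. The share was 20.3% (18.8 to 21.9) at sites of both forms, 7.97% (6.07 to 10.2) at dC-only sites with Brg1 in the dC line alone and 2.302% (1.84 to 2.84) at dC-only sites with no Brg1 in either line. The summit lay within 1 kb of a transcription start at 45.3% of the sites, and the median distance was 1697 bp, against 12099 bp over the whole dC list. Another 30.6% lay 10 to 100 kb from any start. Of all 1603, 71.3% overlapped a protein-coding gene, beside 63.1% of the dC list. The gene table gives no exons, so exon and intron could not be separated. Among the 74 sites that met the rule at a −log10 q of at least 20 in every list, 12 of 73 on those chromosomes overlapped a window (16.4%, 8.79 to 27.0). Brg1 peaks are known to cluster at promoters, and the rule selects on Brg1, so a promoter share above the whole dC list cannot be told apart from that selection. Sites of both forms meet the same Brg1 requirement and had 20.3%, against 33.5% at the dC-only sites with Brg1. The cause of that difference was not tested.

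**Figure D1:**
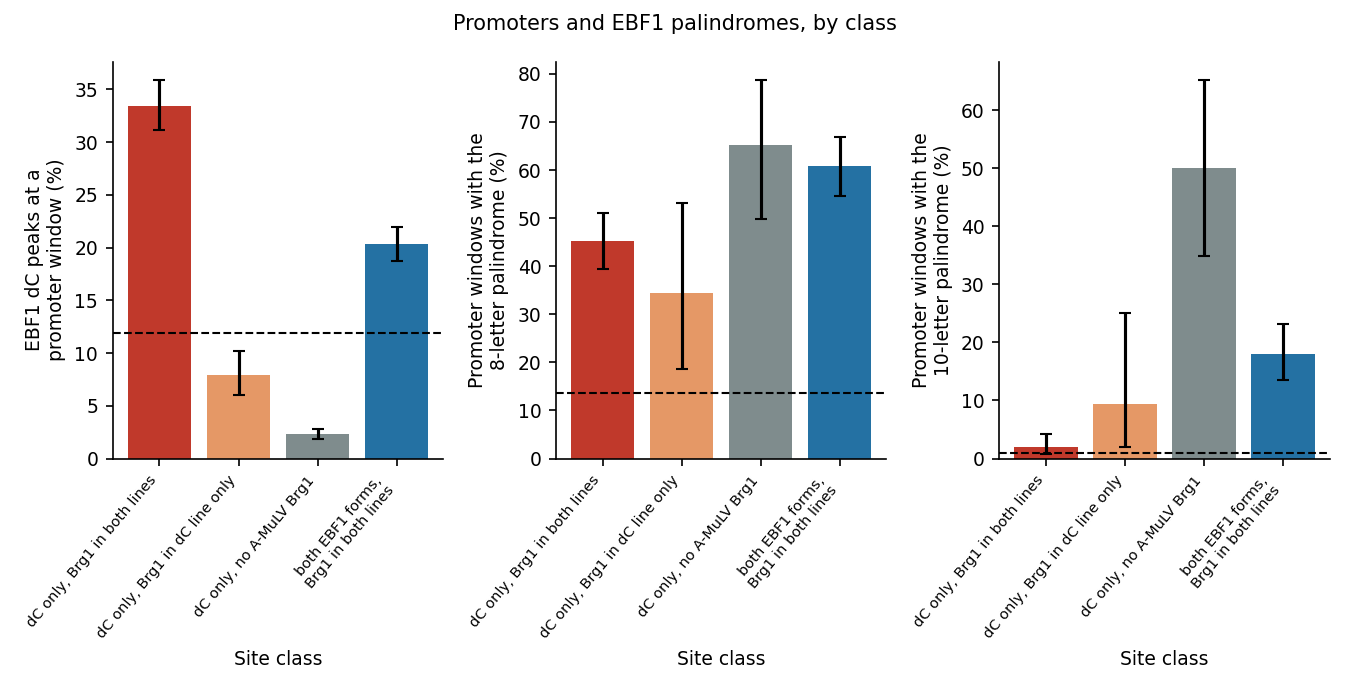
Share of EBF1 dC peaks at a promoter window (left), and share of windows holding an EBF1 dC summit that contain the 8-letter (middle) or 10-letter (right) EBF1 repeat, in percent, for 4 classes of EBF1 dC sites. Bars are shares with exact 95% intervals, and the dashed line is the share over all EBF1 dC peaks (left) or all promoter windows. The dC-only sites with Brg1 in both lines have the tallest bar at left (33.5%) and the lowest at right (1.99%).

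EBF1 dC enrichment at the sites was moderate. The fold ran from 2.01 to 29.8 with a median of 7.94, where the whole dC list had a median of 8.76 and sites of both forms one of 15.6. The median −log10 q, the MACS2 significance of a peak after correction, was 17.5 against 20.7 and 55.0. These values belong to the lists that chose the sites and are given without a test. Dividing the dC list into quartiles by fold, the sites with Brg1 in both lines were 21.5%, 23.3%, 30.0% and 33.7% of the dC-only peaks from the lowest quartile to the highest. In the 2 A-MuLV lines, the overlapping Brg1 peaks had a median fold of 6.70 (wt, range 1.81 to 21.9) and 6.51 (dC, range 2.28 to 31.8). They were 1584 distinct Brg1 peaks in each line, since 19 peaks in each held 2 sites.

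**Figure D2:**
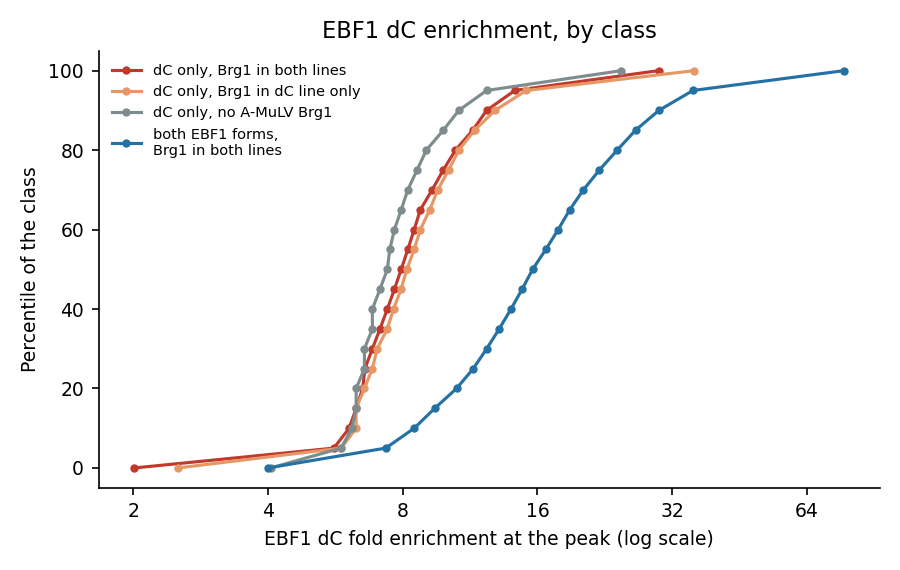
EBF1 dC fold enrichment (horizontal, log scale) against the percentile within each class of EBF1 dC sites (vertical); points are percentiles in steps of 5. The 3 dC-only classes run close together, with medians of 7.39 to 8.17, to the left of the sites of both forms (median 15.6).

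The EBF1 dC list holds 11147 peaks and the wt list 6155, and sequencing depth is unknown, so a missing wt peak is not shown to be an absence of wt EBF1. The nearest wt EBF1 peak lay a median of 30895 bp away, and 98 sites had one within 1 kb. Just inside the rule, the sites nearest to a wt peak were 114 bp from it (nearest gene Gm31493, dC fold 6.51), 135 bp (Hes5, 7.94) and 145 bp (9830107B12Rik, 9.02). Just outside it, the smallest overlaps with a wt peak were 191 bp (Slc26a11, 6.74) and 211 bp (Fggy, 6.74). The smallest overlaps with Brg1 among the sites were 1 bp (Anp32e), 2 bp (Psat1) and 3 bp (P2ry12). The lowest −log10 q was 10.1 at Olfr267, Cab39 and Coro1a, close to the lower end of the list (10.0).

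The fetal liver libraries were not used to choose the sites. Brg1 was called at 95.01% of them with wt EBF1 (93.8 to 96.0), at 94.8% with dC (93.6 to 95.9), at 95.3% with dPLD (94.1 to 96.2) and at 89.8% with F-GATA3 (88.2 to 91.3). With the empty vector it was called at 48.8% (46.3 to 51.3), that is at 782 of 1603 sites in cells that lack EBF1. Over all EBF1 dC peaks the shares were 58.4% (wt), 53.1% (dC), 55.7% (dPLD), 52.7% (F-GATA3) and 19.2% (empty). The sites thus had a fetal liver Brg1 peak more often than the list they come from with every vector, and the 3 intervals for wt, dC and dPLD overlap one another. Because the rule requires Brg1 in 2 lines of pro-B cells, a share above the list as a whole is not a separate observation about EBF1. The numbers of fetal liver peaks were unequal, at 29354 (wt), 30301 (dC), 27550 (dPLD), 25072 (F-GATA3) and 17687 (empty). With each list held to its 17687 most significant peaks, the shares were 85.0% (wt), 85.1% (dC), 86.6% (dPLD), 81.8% (F-GATA3) and 48.8% (empty). With summits required to lie within 200 bp, the empty-vector share was 28.1% of 924 sites and the wt share 72.5%.

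The most like classes differed from the sites in the vectors they had in common. At the 2621 sites of both EBF1 forms with Brg1 in both lines, the shares were 94.0% with wt (93.0 to 94.9), 87.6% with dC (86.2 to 88.8), 91.8% with dPLD (90.7 to 92.9), 89.8% with F-GATA3 (88.6 to 90.9) and 32.9% in the empty-vector library (31.0 to 34.7). The dC, dPLD and empty-vector intervals lie wholly below those of the dC-only sites with Brg1, and the wt and F-GATA3 intervals overlap them. At the 718 dC-only sites with Brg1 in the dC line alone, the shares were 69.1% (wt), 78.1% (dC), 73.4% (dPLD), 54.0% (F-GATA3) and 21.3% (empty), and at the 3789 dC-only sites with no A-MuLV Brg1 they ran from 3.93% (empty) to 17.6% (wt).

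**Figure D3:**
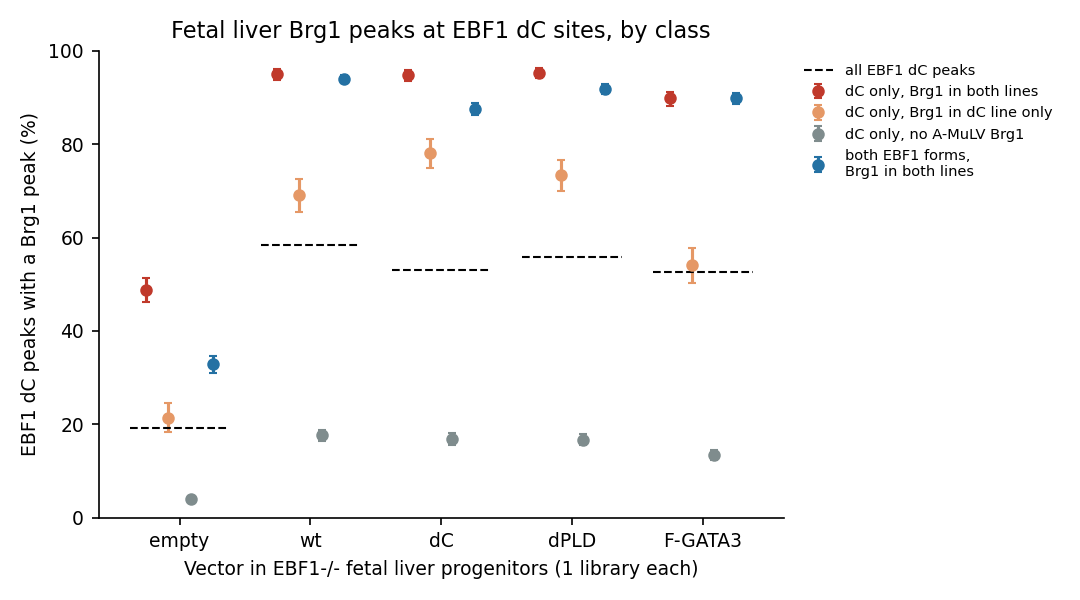
Share of EBF1 dC sites with a fetal liver Brg1 peak, in percent (vertical), for each vector (horizontal, 1 library each) and 4 classes of sites; points carry exact 95% intervals and dashed lines give all EBF1 dC peaks. The dC-only sites with Brg1 in both lines sit at 94.8 to 95.3% with wt, dC and dPLD and at 48.8% with the empty vector.

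Sites called in 1 fetal liver library and not in another compare the libraries directly. With wt and dC, 34 sites were called with wt alone and 31 with dC alone, which is 52.3% for wt (39.5 to 64.9). Beside this, 8.82% of all EBF1 dC peaks were called with wt and not dC and 3.59% with dC and not wt. At sites of both EBF1 forms, the split was 203 against 34 (85.7%, 80.6 to 89.9), and at dC-only sites with Brg1 in the dC line alone it was 40 against 105 (27.6%, 20.5 to 35.6). The interval for the dC-only sites with Brg1 in both lines includes an even split and overlaps neither of these. A split near even was not particular to them: at dC-only sites with no A-MuLV Brg1 it was 190 against 161 (54.1%, 48.8 to 59.4). Held to equal length, the lists gave 84 against 86 at these sites and 347 against 63 at sites of both forms. For wt and dPLD the split was 27 against 31 (46.6%, 33.3 to 60.1), where 5.75% of all EBF1 dC peaks had wt and not dPLD and 3.14% the reverse. With lists of equal length it was 68 against 95 (41.7%, 34.1 to 49.7), an interval below an even split.

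The F-GATA3 library had fewer calls than wt at these sites, as it had in the like classes. Brg1 was called with wt and not F-GATA3 at 91 sites and the reverse at 8 (91.9%, 84.7 to 96.4), against backgrounds of 7.91% and 2.26% of all EBF1 dC peaks. The split was 131 against 21 at sites of both EBF1 forms (86.2%, 79.7 to 91.2) and 125 against 17 at dC-only sites with Brg1 in the dC line alone (88.0%, 81.5 to 92.9), and both intervals overlap that of the sites. With dC in place of wt, 122 sites were discordant, 21 of them with F-GATA3 alone and the other 82.8% with dC alone (74.9 to 89.0), against backgrounds of 7.52% and 7.10%. The dC library was also ahead at the other dC-only sites, with 90.2% where Brg1 was in the dC line alone and 65.5% where no A-MuLV Brg1 was called. At sites of both EBF1 forms the comparison went the other way, with 117 sites for dC alone and 176 for F-GATA3 alone (39.9%, 34.3 to 45.8). List length moved the first values: with equal lists, the split was 107 against 56 for wt (65.6%, 57.8 to 72.9) and 124 against 71 for dC (63.6%, 56.4 to 70.3). Both intervals stayed above an even split, and the direction at sites of both forms stayed as it was, at 139 against 334 (29.4%, 25.3 to 33.7).

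**Figure D4:**
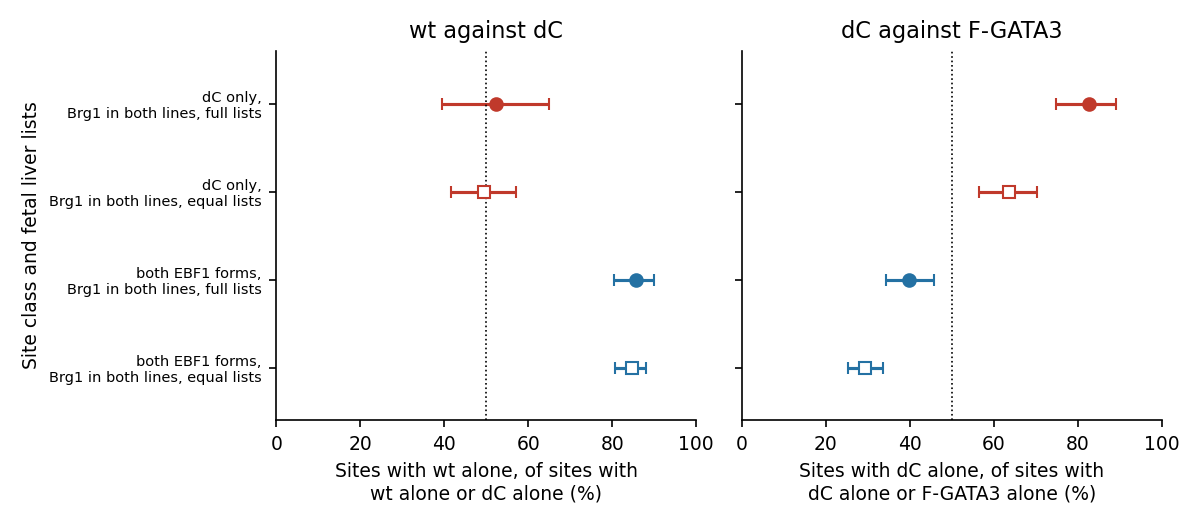
Split of sites that have a Brg1 peak in only 1 of a pair of fetal liver libraries, as the percentage with the first named library (horizontal), for wt against dC (left) and dC against F-GATA3 (right). Filled circles use the full lists, open squares lists of equal length, and bars are exact 95% intervals. The dC-only sites with Brg1 (red) sit at 52.3% in the left panel and right of the dotted even split in the right panel, and sites of both forms (blue) at 85.7% and at 39.9%.

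The 5 libraries together divided the sites into 2 large groups. At 767 sites (47.8%) Brg1 was called with all 5 vectors, the empty one included, against 17.8% of all EBF1 dC peaks. At 642 (40.0%) it was called with the 4 EBF1 versions and not the empty vector, against 26.6%. Only 39 sites (2.43%) had no fetal liver Brg1 peak, against 35.3% of the list. Another 64 had wt, dC and dPLD without F-GATA3 or the empty vector, 18 had dC and dPLD alone, and 5 had dC alone. The 2 large groups had nearly the same EBF1 dC fold (medians 7.94 and 7.71). They differed in position: 41.7% of the first overlapped a promoter window (38.1 to 45.3) and 29.6% of the second (26.0 to 33.3), against 5.26% (2 of 38) of the sites with no fetal liver peak. Among sites at promoters, the empty-vector library was called at 60.4% (56.1 to 64.6), wt at 98.7%, dC at 98.9%, dPLD at 98.7% and F-GATA3 at 96.6%. Over all EBF1 dC peaks at promoters these shares were 50.0% (empty), 93.9% (wt), 92.9% (dC), 94.0% (dPLD) and 90.4% (F-GATA3), and at promoter sites of both forms 53.5%, 98.6%, 98.1%, 98.8% and 97.1%. Away from promoters the shares at the sites were 43.2% (empty, 40.1 to 46.2), 93.3% (wt), 93.0% (dC), 93.7% (dPLD) and 86.5% (F-GATA3). All EBF1 dC peaks away from promoters had 15.0%, 53.5%, 47.9%, 50.7% and 47.6% in the same order. At promoters nearly every site was called with each EBF1 version, which leaves no room for a difference between them there. Away from promoters the intervals for wt, dC and dPLD at the sites overlap, while at sites of both forms dC had 85.1% (83.5 to 86.6) and wt 92.8% (91.6 to 93.9).

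Fetal liver Brg1 shares varied little with EBF1 enrichment. Across quartiles of the EBF1 dC fold within the sites, the wt share was 94.5%, 96.0%, 94.8% and 94.8%, the dC share 93.8%, 95.5%, 94.5% and 95.5%, and the empty-vector share 47.8%, 47.9%, 50.9% and 48.6%. F-GATA3 gave 90.8%, 92.0%, 89.8% and 86.8%. The intervals of the lowest and highest quartile overlap for each vector.

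Summits of EBF1 and Brg1 were farther apart at the sites than where both EBF1 forms were called. The median distance from the EBF1 dC summit to the Brg1 summit was 105 bp in the A-MuLV wt line and 99 bp in the dC line, against 46 and 54 bp at sites of both forms. In fetal liver it was 131 bp (wt), 132 bp (dC), 137 bp (dPLD) and 144 bp (F-GATA3), against 60, 78, 73 and 55 bp. With the empty vector the medians were 198 bp at the sites and 209 bp at sites of both forms. Peak widths differ between the lists, with fetal liver medians of 978 to 1325 bp and A-MuLV medians of 348 and 381 bp, and a wider peak leaves more room for its summit.

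Among the 10 genes with the strongest EBF1 dC signal at a site, 4 had Brg1 with every fetal liver vector and 4 with all but the empty one, beside 47.8% and 40.0% of all sites. The highest fold, 29.8, was 12752 bp from Tmem26, a membrane protein gene, where Brg1 was called with wt (fold 10.7), dPLD (7.42) and F-GATA3 (10.5) and not with dC or the empty vector. In Mdc1 (21.8), a DNA damage mediator, H2-DMa (20.4), a chaperone of antigen loading, Gna12 (19.2), a G protein subunit, and 114262 bp from Spring1 (18.9), Brg1 was called with the 4 EBF1 versions and not the empty vector. In Mta3 (20.3), a NuRD complex subunit, at the promoters of Pogz (20.3), a zinc finger protein, and Gimap6 (20.3), and in Hivep2 (18.9), another zinc finger protein, it was called with all 5 vectors. The 10 sites were taken by EBF1 dC fold, and 9 of them had a fetal liver dC peak.

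Where all 5 libraries had Brg1, the highest fetal liver wt folds were in Ninj2 (36.8), an adhesion protein gene, with 27.6 (dC), 28.3 (dPLD), 24.5 (F-GATA3) and 17.3 (empty). Next came Zfp831 (wt 35.6, empty 11.6), the promoter of Ccdc88b (30.2, 8.47), Il21r (29.9, 9.74), a cytokine receptor gene, and Fnbp1 (29.8, 7.43). Folds of different lists are not on 1 scale and are set side by side without comparison. Among sites without an empty-vector peak, the highest wt folds were in 9830107B12Rik (31.6), near Stoml1 (29.4), at a promoter window 9519 bp from Erfl (28.5), in Rasgrp2 (27.8), a Ras-family activator, and 15428 bp from Bcar3 (26.5). Each of these 5 was also called with dC, dPLD and F-GATA3, as were 642 of the 745 sites called with wt and not the empty vector.

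The sites that split wt from dC were few, and those with the highest folds are named here. Called with wt and not dC were the Neu1 promoter (wt fold 13.9, dPLD 9.58, F-GATA3 16.1), encoding a lysosomal sialidase, a site near Rhobtb2 (wt 11.3, dPLD 11.6), one in Acsbg1 (wt 10.8, dPLD 4.06, F-GATA3 14.0), the Tmem26 site and one in Msi2 (9.64, with wt alone), encoding an RNA-binding protein. Called with dC and not wt were sites 11105 bp from Zdhhc19 (dC fold 15.6, dPLD 16.8), near Erp27 (11.3, 6.98), Slc30a9 (10.8, 6.24) and Capn13 (10.6, 9.06) and in Hecw2 (8.97, 7.07). All 5 of the latter were called with dPLD too, and with neither F-GATA3 nor the empty vector. This was the combination at 18 of the 31 sites called with dC and not wt. With no fetal liver peak, the highest EBF1 dC folds were near Crtc3 (16.4), in Antxr2 (15.6), 160236 bp from Tle4 (11.7), and in Srek1 (11.2) and Setdb2 (9.91).

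Genes of the B lineage and of B-cell receptor signalling lay near the sites. Of 21887 protein-coding genes, 1786 (8.16%) had a site in the gene or within 10 kb, and 42.2% of those also had a wt EBF1 peak in that window, against 19.9% of all genes. In the B-lineage list 10 of 34 genes had a site, among them Pax5, Tcf4, Lef1, Spib, Cd79b, Blnk, Bank1, Fcrla and Irf8. Of these 10, 7 also had a wt EBF1 peak within 10 kb, all but Blnk, Fcrla and Irf8. This is near the 73.5% of the whole B-lineage list with such a peak. For the list as a whole, sites of both EBF1 forms with Brg1 were near 21 of the 34, and dC-only sites with no A-MuLV Brg1 near 13. Gene lists are described by counts, and no set test was made. A longer gene spans a larger window, and shares of genes here and below were not adjusted for gene length.

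Transcription factor genes of the list had sites both with and without empty-vector Brg1. At Pax5, which encodes a factor that keeps cells in the B lineage, the site chr4:44671005-44671395 lay inside the gene with an EBF1 dC fold of 9.31. Brg1 folds there were 16.2 in the A-MuLV wt line and 31.8 in the dC line, and 24.8 (wt), 22.5 (dC), 15.5 (dPLD) and 13.3 (F-GATA3) in fetal liver, with no peak with the empty vector. At Lef1, a Wnt-pathway factor, the site with the higher EBF1 dC fold (12.6) had Brg1 with all 5 vectors, at folds of 6.35 (empty), 7.19 (wt), 8.65 (dC), 7.40 (dPLD) and 6.08 (F-GATA3). The site near Spib, encoding an ETS-family factor, also had all 5, at 9.07 (empty), 22.0 (wt), 16.8 (dC), 21.0 (dPLD) and 14.2 (F-GATA3). At Irf8, an interferon regulatory factor gene, the folds were 12.0 (wt), 9.74 (dC), 14.0 (dPLD) and 12.5 (F-GATA3), again with no empty-vector peak. At Tcf4, an E protein gene, 1 of 2 sites had fetal liver peaks with wt (3.92) and F-GATA3 (4.04) and not with dC, dPLD or the empty vector.

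Genes of the receptor complex and its adaptors followed. Cd79b, encoding a signalling chain of the B-cell receptor, had 2 sites, and the stronger one had fetal liver folds of 22.3 (wt), 22.5 (dC), 21.1 (dPLD) and 21.6 (F-GATA3). Blnk, the adaptor that links the receptor to downstream kinases, also had 2, the first with 15.3 (wt), 21.8 (dC), 10.6 (dPLD) and 17.6 (F-GATA3). Fcrla, an Fc-receptor-like protein of B cells, had 18.5, 14.1, 14.1 and 13.8 in the same order, and Bank1, a B-cell scaffold, had 7.85, 7.68, 6.67 and 7.10. None of these 4 genes had an empty-vector peak at a site. Over the 14 B-lineage sites, Brg1 was called at 14 with wt, 13 with dC, 13 with dPLD, 14 with F-GATA3 and 2 in the empty-vector library, or 14.3% for the empty vector. The empty-vector share was 48.8% over all 1603 sites and 43.2% over those away from promoters, and the 14.3% rests on only 2 of 14 sites. None of the 14 overlapped a promoter window, and 2 of them lie on chromosome 18, which has none in the table.

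**Figure D5:**
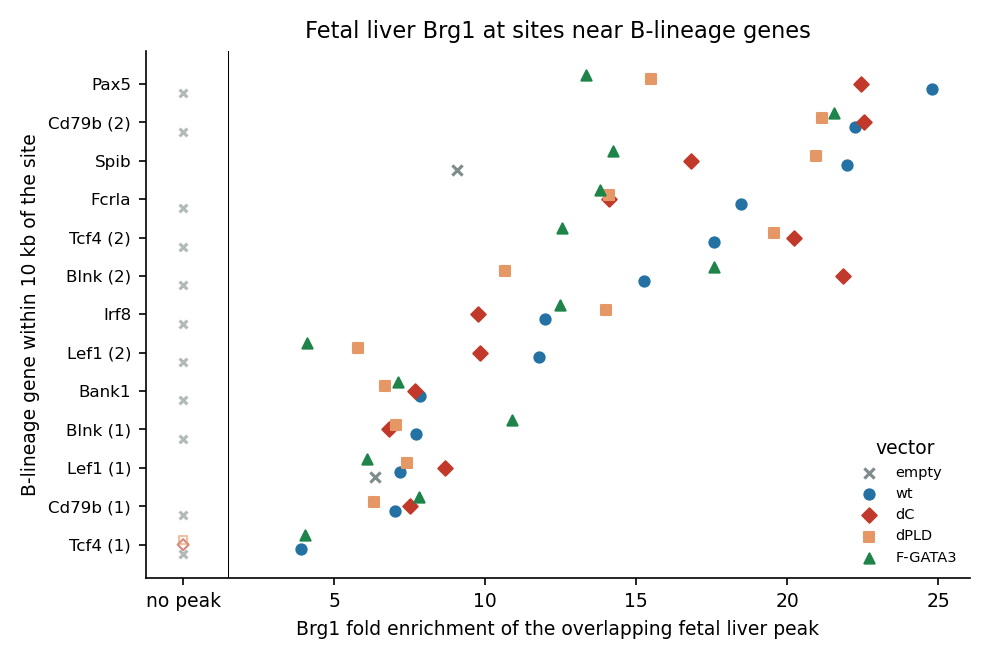
Fold enrichment of the overlapping fetal liver Brg1 peak (horizontal) at 13 of the 14 sites within 10 kb of a B-lineage gene (vertical), with 1 symbol per vector; symbols at the left edge mark no peak, and numbers in brackets tell sites of 1 gene apart. The empty vector has a peak at 2 of them, near Spib and Lef1, and the folds of different libraries are not on 1 scale.

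For proximal B-cell receptor signalling, 10 of 24 genes had a site (41.7%), beside 8.16% of all protein-coding genes. Sites of both EBF1 forms with Brg1 were near 12 of the 24 and dC-only sites with no A-MuLV Brg1 near 8, beside 10.7% and 14.5% of all genes. The 10 genes were Blnk, Pik3cd, Pik3ap1, Vav1, Vav2, Cblb, Ptpn6, Malt1, Nfatc1 and Cd81. All 13 of their sites were called with wt, dC, dPLD and F-GATA3, and 7 with the empty vector (53.8%), near the shares of all 1603 sites (89.8 to 95.3% with the EBF1 versions and 48.8% with the empty vector). At Ptpn6, encoding the phosphatase SHP-1, the folds were 7.94 (empty), 18.0 (wt), 11.9 (dC), 12.2 (dPLD) and 9.41 (F-GATA3). At Pik3ap1, an adaptor of PI3 kinase, they were 7.83, 20.3, 16.0, 13.9 and 9.22 in the same order. The EBF1 dC fold was 11.0 at the site near Malt1, a protease of the NF-kappaB route, 9.58 near Nfatc1, a calcium-regulated factor gene, 10.9 at the Tssc4 promoter near Cd81, a tetraspanin gene, and 10.1 at the promoter of Cblb, a ubiquitin ligase. The Cblb promoter had no empty-vector peak, and its folds were 4.47 (wt), 6.25 (dC), 3.64 (dPLD) and 6.50 (F-GATA3).

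Subunits of Brg1's own complexes were represented by 5 of 19 genes (26.3%), beside 8.16% of all protein-coding genes. The like classes also lay near such genes. Sites of both EBF1 forms with Brg1 were near 6 of the 19 and dC-only sites with no A-MuLV Brg1 near 4, beside 10.7% and 14.5% of all genes. Smarca4 itself had 2 sites, without an empty-vector peak, at folds of 8.07 (wt), 14.4 (dC), 11.1 (dPLD) and 10.2 (F-GATA3) and of 9.09, 7.25, 9.52 and 6.04. Arid1a and Arid1b, which encode DNA-binding subunits, had 2 each, and Smarcd2 and Phf10, a PBAF subunit gene, had 1. An Arid1a site overlapped the promoter of Pigv, and the Phf10 site those of 1600012H06Rik and Wdr27. All 8 sites were called with the 4 EBF1 versions and 5 with the empty vector (62.5%), again near the shares of all sites. The strongest of them by fetal liver wt fold was near Smarcd2, at 17.3 (wt), 16.7 (dC), 16.2 (dPLD), 13.7 (F-GATA3) and 6.42 (empty). Ebf1 itself had no site within 10 kb.

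Lists of other lineages were short and their counts were mixed. No site lay within 10 kb of the 14 myeloid, the 10 erythroid and megakaryocyte, the 12 innate lymphoid and NK or the 11 stromal genes. With 8.16% of all protein-coding genes near a site, a list of this size would hold about 1 such gene. Lists this short cannot decide whether sites were fewer near these genes. Within 50 kb, 4 of the 14 myeloid genes had a site (28.6%), beside 16.9% of all genes. T-lineage genes with a site were Notch1, Il2ra and Ets1 (3 of 16, or 18.8%), and progenitor genes were Flt3 and Lmo2 (2 of 12, or 16.7%). The stronger Notch1 site, in a receptor gene of T-cell commitment, had folds of 10.6 (empty), 21.7 (wt), 23.0 (dC), 19.6 (dPLD) and 18.1 (F-GATA3). Flt3, a cytokine receptor of lymphoid progenitors, had 9.21, 26.3, 24.9, 20.3 and 14.6. The site at Il2ra, the interleukin-2 receptor alpha chain, had 8.49 (wt), 6.63 (dC) and 5.46 (dPLD) and no peak with F-GATA3 or the empty vector. The Ets1 site with the higher EBF1 dC fold (11.6), at an ETS-family factor gene, had Brg1 at 5.82 (wt), 8.53 (dC), 6.39 (dPLD) and 5.20 (F-GATA3).

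Genes expressed in most cells were also near sites. Ubiquitously expressed genes with a site were Actb, Eef2 and Rpl13a (3 of 14), and cytoplasmic ribosomal protein genes were Rpl18, Rpl4 and Rps18 (3 of 25). These are 21.4% and 12.0%, beside 8.16% of all protein-coding genes. The 4 sites of the first list were all called with the empty vector, beside 48.8% of all sites and 60.4% of those at promoters. Of the 4, 2 lie at promoters, and these belong to other genes. They were Fbxl18 and Gm38733 for an Actb site and Flt3l for the Rpl13a site. The Rps18 site likewise overlapped the promoter of Vps52. The stronger Actb site had folds of 10.7 (empty), 17.1 (wt), 15.8 (dC), 17.0 (dPLD) and 12.5 (F-GATA3). From the cell cycle list, Ccnd3 and Cdkn1b had sites (2 of 15). Ccnd3, the gene of cyclin D3, which pre-B cells need to divide, had 4 sites, the most of any gene together with Lyl1, Nfix and Trmt1. Its site with the highest EBF1 dC fold (11.7) had Brg1 at 14.6 (wt), 17.8 (dC), 16.5 (dPLD) and 14.5 (F-GATA3) and none with the empty vector, and its other 3 sites were called with all 5 vectors. At 5 sites a miRNA hairpin was overlapped, that of Mir7654, Mirlet7i, Mir142b, Mir5627 or Mir6388. These 5 are given without a background count over all EBF1 dC peaks. The Mir142b site had a Brg1 peak with all 5 vectors.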

How the data were processed

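Brg1 and EBF1 were measured by ChIP-seq in 9 libraries, and 5 inputs were not analysed here. The submitters' processing notes list, on build GRCm38, MACS2 2.1.2, Bowtie2 2.3.3.1, deepTools 3.3.1 and SAMtools 1.9. The authors deposited 1 peak list per library. Each deposited list gives positions, a score per peak, the fold enrichment as a ratio, and −log10 p and −log10 q, as the deposited MACS2 peak format defines them. The threshold, input and duplicate handling were not given in the sources used here. Across lists, the lowest −log10 q was near 10 in 7 lists and 1.37 (wt) or 1.33 (dC) in those of A-MuLV Brg1. Crosslinking, per the labels' protocols, was 2% formaldehyde with EGS in fetal liver, 1% with EGS for A-MuLV Brg1 and 1% alone for EBF1. Depth per sample is unknown.

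Overlaps were computed in Python 3.11.15 (pandas 2.3.3, numpy 2.4.6) and checked on simulated intervals. Shares carry exact Clopper-Pearson 95% intervals (scipy 1.17.1). Figures used matplotlib 3.10.9. With 1 library per group, no test was made across conditions. Genes and promoter windows are from RefSeq tables (GRCm38.p6); all 201 genes of the 12 lists matched. Genes were assigned by the nearest protein-coding interval, ties to the shorter gene. Those named are the 10 with the highest EBF1 dC fold, the 5 highest in each of 5 fetal liver groups by fetal liver fold (EBF1 dC fold where no fetal liver list had a peak), up to 4 per list by EBF1 dC fold, and Ebf1, Pax5 and Smarca4. Values of other list genes, of the sites at the edge of the rule and of the promoters shown were chosen after values had been seen. The sites and lists were chosen with earlier results of these data known. Alternatives covered the −log10 q minimum, the overlap rule, the distance to wt EBF1 peaks, list length and the gene window. Some named sites that the rule selects are not reported here.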

Additional observations from a re-analysis of the deposited data

How the results depend on the processing

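The split between wt and dC in fetal liver kept its place near even under every alternative with more than 1 discordant site. It ran from 48.7% to 61.1% for wt and was 100% of 1 site with all peaks at a −log10 q of at least 20. F-GATA3 had the lowest share of the 4 EBF1 versions under each alternative but that minimum, where it tied with dPLD. The cause of the shifts below was not tested except where fewer peaks entered by construction. With all peaks at that minimum, 74 sites and 69 genes near them were left, with shares of 98.6% (wt), 97.3% (dC), 95.9% (F-GATA3) and 41.9% (empty), splits of 100% for wt over F-GATA3 (2 sites) and 66.7% for dC over F-GATA3 (3 sites), and 16.4% at promoters. With A-MuLV Brg1 peaks at a −log10 q of at least 5, the shares were 97.0% (wt), 96.3% (dC), 96.9% (dPLD), 93.4% (F-GATA3) and 52.9% (empty). With summits no more than 200 bp apart in place of every overlap, that with wt EBF1 included, there were 924 sites and 999 genes. The shares were then 72.5%, 72.2%, 71.2%, 66.6% and 28.1% in that order. The splits were 66.1% for wt and 65.3% for dC over F-GATA3, with 30.2% at promoters. Fetal liver lists of equal length gave 85.0% (wt), 85.1% (dC), 86.6% (dPLD) and 81.8% (F-GATA3), with splits of 65.6% for wt and 63.6% for dC over F-GATA3. Holding all Brg1 lists to that length, an alternative added after the data had been seen, gave 87.8%, 88.1%, 89.4%, 84.8% and, for the empty vector, 51.4%, with splits of 65.6% and 65.3%. With the EBF1 dC list held to the 6155 peaks of the wt list, there were 709 sites and 838 genes, an F-GATA3 share of 88.0%, a split of 98.0% for wt over F-GATA3 and 30.6% at promoters. A window of 50 kb put 3702 genes near a site. Of 123 alternative values, 67 stayed within the interval or within 1.5 times the count. Of the splits whose interval excluded an even split, none changed side. The other 2, whose intervals include it, crossed it: wt over dC fell to 49.4% with equal fetal liver lists and 48.7% with all Brg1 lists equal, and wt over dPLD (46.6%) ran from 41.5% to 53.8%, and was 3 of 4 sites at the −log10 q minimum of 20. Depth is unknown, and the protein may be present below the threshold where no peak was called, while intervals cover counting error only. No paired analysis was possible because the labels give no replicate numbers and each group had 1 library.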
